A study of Mus musculus with 20 samples.

Results

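The genes described here encode the proteasome, the barrel-shaped protease that degrades ubiquitin-tagged proteins. They were chosen by name: every gene with a probe set of 1 gene symbol whose symbol starts with Psma, Psmb, Psmc, Psmd, Psme or Psmg followed by a digit. This gave 49 genes of the 19938 genes with such a probe set. Of the 49, 2 are not proteasome subunits or chaperones (Psmc3ip, a cofactor of meiotic recombination, and Psme3ip1, a protein that binds the activator subunit Psme3). A further 2 are subunits known from other tissues, Psma8 from testis and Psmb11 from thymic epithelium. Psma8 and Psmb11 stayed below the level at which genes were tested, at log2 values of 5.82 to 6.30 for Psma8 and 6.68 to 7.22 for Psmb11 over the 20 arrays, so that 47 genes were tested.

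Total RNA of splenic B cells of C57BL/6 mice aged 8 to 12 weeks, of mixed gender, was hybridised to microarrays. B cells were enriched by removing CD43+ cells with magnetic beads. One genotype is mb-1/TAK1f/f, called TAK1-deleted here, with floxed alleles of the kinase TAK1 (gene symbol Map3k7). The labels do not spell out the deleter, and mb-1 is a B-lineage gene commonly used to drive Cre. The other is mb-1/TAK1+/+, the wild type, so that both genotypes are labelled with mb-1. Cells of each genotype were taken unstimulated (0 h) or after 1, 3, 6 or 24 h with 10 µg/ml of anti-IgM, an antibody that crosslinks the B-cell receptor. Each of the 10 groups has 2 arrays. The labels do not say whether these came from separate mice, and every p-value rests on a spread that may be technical.

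The 20S core of the proteasome is a stack of rings, with outer α rings (Psma genes) that gate the entry and inner β rings (Psmb genes) that hold the cutting sites. The 19S regulator caps the core. Its ATPases (Psmc genes) unfold substrates, and its other subunits (Psmd genes) bind ubiquitin and remove it. In lymphocytes and after interferon, the standard cutting subunits Psmb5, Psmb6 and Psmb7 can be replaced during assembly by Psmb8, Psmb9 and Psmb10, which gives the immunoproteasome, known for making peptides for MHC class I. The transcription factor Nfe2l1 is known to induce the standard subunit genes through antioxidant response elements, and interferon-activated factors of the IRF and STAT families are known to induce the immunoproteasome genes.

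Promoters of catalytic genes of each kind are printed here because these groups of genes moved in opposite directions at 3 and 6 h (see the values that follow). Each runs 5′ to 3′ from 250 bases before to 50 bases after the RefSeq start of the gene (build GRCm38.p6, 300 bases). Capitals mark letters that match a searched motif. The promoters are at chr14:54617946-54618245 on the minus strand for Psmb5, chr11:70525107-70525406 on the plus strand for Psmb6, chr17:34197945-34198244 on the plus strand for Psmb8, chr17:34187281-34187580 on the minus strand for Psmb9 and chr8:105938343-105938642 on the minus strand for Psmb10.
Psmb5: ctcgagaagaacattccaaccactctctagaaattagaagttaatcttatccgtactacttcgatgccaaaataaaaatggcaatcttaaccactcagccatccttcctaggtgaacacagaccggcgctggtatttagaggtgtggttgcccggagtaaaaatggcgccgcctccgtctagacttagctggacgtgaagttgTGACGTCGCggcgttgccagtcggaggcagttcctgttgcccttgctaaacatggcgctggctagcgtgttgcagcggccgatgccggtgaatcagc
Psmb6: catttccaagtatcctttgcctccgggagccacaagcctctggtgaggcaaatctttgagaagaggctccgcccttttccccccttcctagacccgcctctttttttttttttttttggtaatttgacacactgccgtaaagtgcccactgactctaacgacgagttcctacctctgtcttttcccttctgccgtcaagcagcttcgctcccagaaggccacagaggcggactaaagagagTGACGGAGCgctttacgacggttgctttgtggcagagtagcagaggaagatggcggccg
Psmb8: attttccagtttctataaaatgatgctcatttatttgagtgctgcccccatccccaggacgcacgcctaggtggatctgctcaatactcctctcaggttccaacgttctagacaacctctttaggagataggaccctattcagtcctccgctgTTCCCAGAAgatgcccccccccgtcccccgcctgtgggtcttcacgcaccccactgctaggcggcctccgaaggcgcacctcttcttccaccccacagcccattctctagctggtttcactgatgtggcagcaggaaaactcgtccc
Psmb9: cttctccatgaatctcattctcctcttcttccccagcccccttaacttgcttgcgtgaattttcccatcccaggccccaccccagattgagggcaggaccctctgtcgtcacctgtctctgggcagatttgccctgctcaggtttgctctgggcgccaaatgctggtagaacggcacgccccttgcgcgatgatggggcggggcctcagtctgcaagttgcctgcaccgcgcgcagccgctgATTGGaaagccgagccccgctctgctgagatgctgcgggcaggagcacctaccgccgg
Psmb10: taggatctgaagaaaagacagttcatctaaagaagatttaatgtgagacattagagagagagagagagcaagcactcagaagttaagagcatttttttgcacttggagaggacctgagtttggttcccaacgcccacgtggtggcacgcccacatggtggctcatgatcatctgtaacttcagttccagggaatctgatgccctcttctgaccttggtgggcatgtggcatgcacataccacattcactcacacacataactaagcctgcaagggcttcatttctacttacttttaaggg
In Psmb5 and Psmb6 the capitals are the core of the antioxidant response element, TGACNNNGC, which began 47 bases before the start in Psmb5 and 9 bases before it in Psmb6. For Psmb7, the other standard catalytic gene, no promoter sequence was found. In Psmb8 the capitals are the STAT-type GAS element TTCNNNGAA, 97 bases before the start. In Psmb9 they are the CCAAT box, read on the opposite strand, 8 bases before the start. Psmb10 has no capitals, since none of the motifs searched was found in its window.

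Promoter sequences were found for 41 of the 49 genes, and both strands were searched. TGACNNNGC was present in 6 of the 41 genes (14.6%), against 12.4% of the 32851 promoters of the whole table, and the other genes with it were Psmc6, Psmd9, Psmd12 and Psme4. TTCNNNGAA was present in 3 genes (7.32%), Psmb8, Psmd2 and Psmg1, against 8.3% of all promoters. The IRF element was present in 5 genes (12.2%), Psmb3, Psmd4, Psmd9, Psme1 and Psmg4, against 3.44% of all promoters. CCAAT was present in 16 genes (39%), against 37.4%, and the κB element in 1 gene (2.44%), against 1.63%. The GAS letters read the same on both strands. The whole table holds the promoters of 27025 genes, some with several, so shares of genes and shares of promoters differ in unit. A match describes the letters only.

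The 2 arrays of a group correlated at 0.979 to 0.994 over the genes tested, and array medians were 7.37 to 7.52. Map3k7 itself had log2 values of 10.40 to 10.76 in TAK1-deleted cells, against 10.16 to 10.71 in wild type cells, and passed the test between genotypes at no time. Where its probes lie relative to the floxed part is not given in the sources used here, so this probe set does not check the deletion. Of the B-cell markers sought, 7 of 8 had a probe set and all 7 were tested, with a summed level of 15.84 to 15.97 (log2) at 0 h over both genotypes. Levels of the markers of macrophages, neutrophils, red cells, T cells, natural killer cells and plasma cells are given further below.

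At 6 and 24 h of anti-IgM most proteasome genes rose in both genotypes, and at 3 h most did in wild type cells. A gene is called changed at a Benjamini-Hochberg adjusted p under 0.05 in limma, over all 11968 genes tested. In TAK1-deleted cells 4 of the 47 genes were called at 1 h, 25 at 3 h, 31 at 6 h and 33 at 24 h, where 19.3%, 41.7%, 35.8% and 27.6% of all genes tested were called. In wild type cells 7 were called at 1 h, 32 at 3 h, 40 at 6 h and 39 at 24 h, where 24.5%, 44.1%, 43.2% and 43.8% of all genes were called. These calls were nearly all rises after 1 h. Cells kept in culture without anti-IgM are not among the groups, so that the antibody and time in culture cannot be told apart.

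In TAK1-deleted cells 1 gene rose at 1 h, 22 at 3 h, 28 at 6 h and 32 at 24 h, against 9.1%, 19.6%, 18.5% and 14.9% of all genes tested. In wild type cells 1 gene rose at 1 h, 29 at 3 h, 38 at 6 h and 38 at 24 h, against 10.6%, 20.9%, 24.1% and 23.6% of all genes. Falls were few: 3, 3, 3 and 1 genes in TAK1-deleted cells at the 4 times, where 10.2%, 22.1%, 17.3% and 12.7% of all genes fell, and 6, 3, 2 and 1 genes in wild type cells, where 13.9%, 23.2%, 19.1% and 20.2% of all genes fell. The median log2 change over the 47 genes in TAK1-deleted cells was 0.03 at 1 h, 0.37 at 3 h, 0.51 at 6 h and 0.55 at 24 h. In wild type cells it was -0.17, 0.50, 0.78 and 0.90 at the same times. The median over all genes tested lay between -0.05 and 0.07 in each of these comparisons.

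The set of risers was largely shared. In TAK1-deleted cells 17 genes were called up at 3, 6 and 24 h, and all 17 of them were among the 29 called up at these times in wild type cells. The share of all genes tested with this pattern was not counted, so the overlap is not known to be particular to these genes. Genes never called at any time numbered 8 in TAK1-deleted cells and 4 in wild type cells, and Psme3ip1, Psme4 and Psmg3 were in both lists. The replicate block called all of these up in wild type cells, Psme3ip1 at 3 and 6 h (adjusted p 0.0269 and 0.00894) and, at 24 h, Psme4 (0.32, adjusted p 0.0137) and Psmg3 (0.32, adjusted p 0.0494). With the replicate number as a block, calls at 1 h numbered 10 in TAK1-deleted cells (36.3% of all genes) and 11 in wild type cells (43.2% of all genes), and 8 and 10 of these were falls. With each array centred on its median, the 1 h calls in TAK1-deleted cells were 2 rises and 3 falls (26.5% of all genes called). Leaving out the first wild type array at 0 h left 4 calls at 1 h (15.5% of all genes), and leaving out any 1 array of the TAK1-deleted comparison left 1 or 2 (12.5% to 15.3%). Leaving out the second TAK1-deleted array at 0 h lowered the counts in that genotype to 16 at 3 h (34.8% of all genes), 20 at 6 h (28.5%) and 21 at 24 h (20.6%). In TAK1-deleted cells 14 of the 25 calls at 3 h, 16 of 31 at 6 h and 19 of 33 at 24 h were kept whichever array was left out, and in wild type cells 21 of 32, 29 of 40 and 37 of 39.

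**Figure D1:**
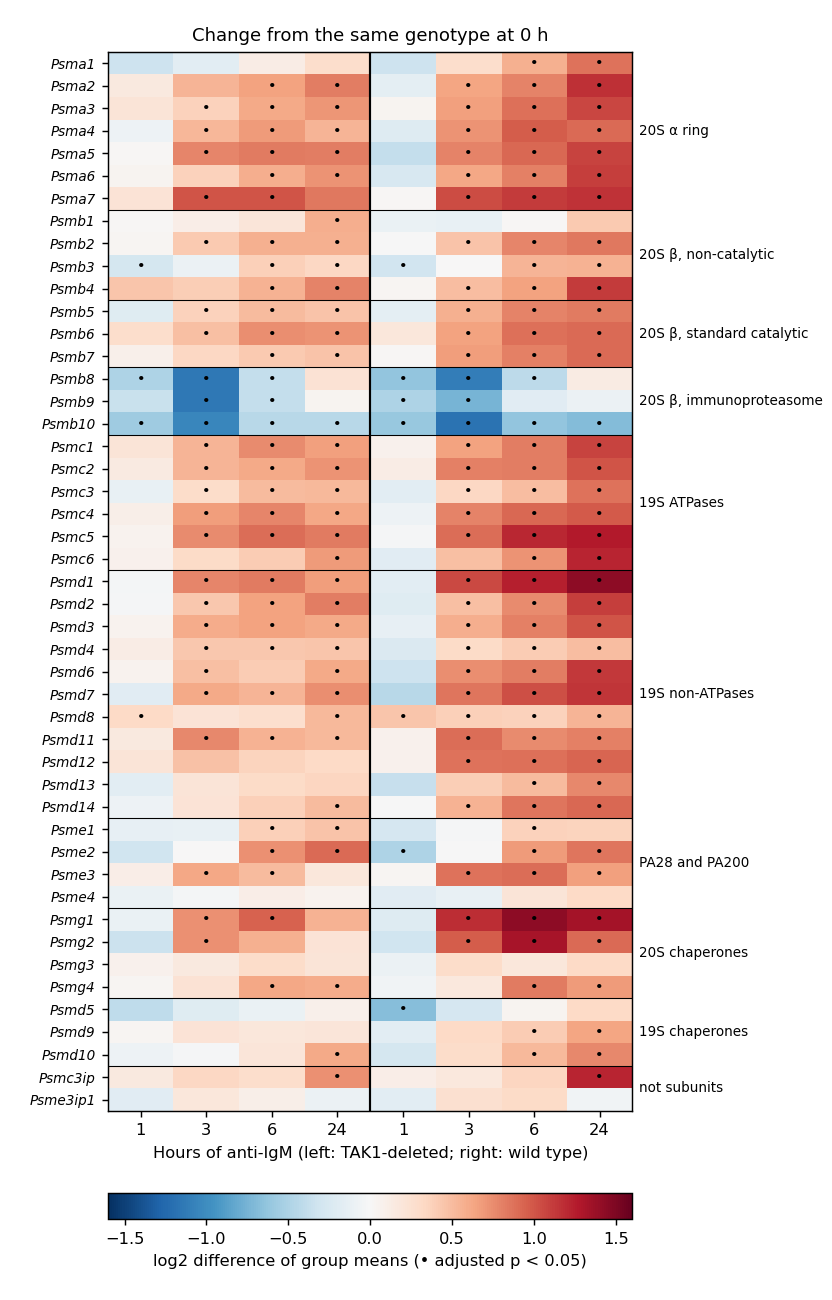
Log2 difference of group means from the same genotype at 0 h, for the 47 genes tested (rows, by class) at 1, 3, 6 and 24 h of anti-IgM in TAK1-deleted cells (left 4 columns) and wild type cells (right 4 columns), with a dot where the adjusted p was under 0.05. At 3 h 38 of the 47 rows are above 0 in TAK1-deleted cells and 39 in wild type cells, and the rows of Psmb8, Psmb9 and Psmb10 are blue at 1 and 3 h in both genotypes.

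The 31 standard subunits of the 26S proteasome (α ring, β ring without the immunoproteasome genes, and 19S) carried most of these rises. In TAK1-deleted cells 1, 19, 23 and 27 of the 31 rose at 1, 3, 6 and 24 h, and in wild type cells 1, 26, 30 and 30 did. Of all genes tested, 9.1%, 19.6%, 18.5% and 14.9% rose at these times in TAK1-deleted cells. In wild type cells 10.6%, 20.9%, 24.1% and 23.6% of all genes did. Of the 31, the highest group mean was at 24 h for 17 genes in TAK1-deleted cells and at 6 h for 12, while in wild type cells it was at 24 h for 29 genes. The lowest group mean was at 1 h for 10 of these genes in TAK1-deleted cells and for 20 in wild type cells.

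The α-ring genes, whose products form the gated entry of the core, numbered 7. In TAK1-deleted cells 4 rose at 3 h, 6 at 6 h and 5 at 24 h, and in wild type cells 6, 7 and 7 did. Of all genes tested, 19.6%, 18.5% and 14.9% rose at these times in TAK1-deleted cells, and 20.9%, 24.1% and 23.6% in wild type cells. Psma7 had the largest change among the α genes in wild type cells at 6 h. Psma7 had log2 values of 10.13 and 9.35 at 0 h, 10.35 and 9.56 at 1 h, 10.99 and 10.49 at 3 h, 10.88 and 10.61 at 6 h, then 10.66 and 10.50 at 24 h in TAK1-deleted cells. Psma7 in wild type cells had 10.06 and 9.49 at 0 h, 10.09 and 9.51 at 1 h, 11.07 and 10.56 at 3 h, 11.07 and 10.73 at 6 h, then 11.12 and 10.76 at 24 h. The first array was above the second in every group, and all stimulated arrays from 3 h on lay above both 0 h arrays of their genotype. Its log2 change at 3 h was 1.00 ± 0.31 (SE, adjusted p 0.017 in limma) in TAK1-deleted cells and 1.04 ± 0.31 (adjusted p 0.0129) in wild type cells. At 24 h the change in TAK1-deleted cells was 0.84 (adjusted p 0.059, or 1.87e-05 with the replicate block), against 1.16 (adjusted p 0.00651) in wild type cells. The calls of Psma7 at 3 h in both genotypes and at 24 h in wild type cells were lost without the first array at that time and without the second 0 h array of the genotype (highest adjusted p 0.205 at 3 h in TAK1-deleted cells, 0.127 at 3 h in wild type cells and 0.0794 at 24 h in wild type cells). Psma1 moved least at 6 h among the α genes. Its log2 change at 6 h was 0.12 in TAK1-deleted cells, which was not called, and 0.56 ± 0.15 (adjusted p 0.00721) in wild type cells.

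Of the β-ring genes without a cutting site, which hold the rings together, Psmb2 and Psmb4 rose with the rest and Psmb1 and Psmb3 departed from them. Psmb3 was called down at 1 h and up at 6 h. Psmb3 had log2 values of 12.73 and 12.80 at 0 h, 12.52 and 12.45 at 1 h, 12.68 and 12.67 at 3 h, 13.22 and 13.07 at 6 h, then 13.13 and 13.06 at 24 h in TAK1-deleted cells. Psmb3 in wild type cells had 12.66 and 12.68 at 0 h, 12.43 and 12.30 at 1 h, 12.63 and 12.72 at 3 h, 13.24 and 13.18 at 6 h, then 13.23 and 13.23 at 24 h. The 1 h arrays were below and the 6 and 24 h arrays above every 0 h array in both genotypes. The log2 change at 1 h was -0.28 ± 0.08 (adjusted p 0.0189) in TAK1-deleted cells and -0.30 ± 0.08 (adjusted p 0.00865) in wild type cells, and at 6 h 0.38 (adjusted p 0.00101) in TAK1-deleted cells and 0.54 (adjusted p 2.99e-05) in wild type cells. The 1 h call of Psmb3 in TAK1-deleted cells was lost without either 0 h array, without the second 1 h array, with arrays centred on their medians and without the intensity trend (highest adjusted p 0.17). That in wild type cells was lost without the second 1 h array (adjusted p 0.0984) and with arrays centred. Psmb1 was the one standard 26S gene not called up in wild type cells at 6 or 24 h. Its log2 change at 24 h was 0.59 ± 0.17 (adjusted p 0.0174) in TAK1-deleted cells and 0.42 ± 0.17 (adjusted p 0.0558, or 0.0018 with the replicate block) in wild type cells. The TAK1-deleted call of Psmb1 was lost without the first array at 24 h or the second at 0 h (highest adjusted p 0.18).

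All 17 subunit genes of the 19S regulator rose in wild type cells at 6 h and at 24 h. In TAK1-deleted cells 12 rose at 3 h, 11 at 6 h and 15 at 24 h, and at 3 h in wild type cells 15 did. Of all genes tested, 19.6%, 18.5% and 14.9% rose at 3, 6 and 24 h in TAK1-deleted cells. In wild type cells 20.9%, 24.1% and 23.6% of all genes did. The median change of the 6 ATPases at 24 h was 0.67 in TAK1-deleted cells and 1.04 in wild type cells, and that of the 11 other subunits was 0.52 in TAK1-deleted cells and 0.93 in wild type cells. Psmd1, the large scaffold subunit to which other factors of the base attach, had the largest change in wild type cells at 24 h. Psmd1 had log2 values of 11.07 and 10.89 at 0 h, 11.10 and 10.81 at 1 h, 11.69 and 11.84 at 3 h, 11.68 and 11.96 at 6 h, then 11.72 and 11.58 at 24 h in TAK1-deleted cells. Psmd1 in wild type cells had 10.81 and 10.62 at 0 h, 10.57 and 10.51 at 1 h, 11.78 and 11.76 at 3 h, 11.97 and 11.96 at 6 h, then 12.28 and 12.01 at 24 h. Arrays from 3 h on lay above both 0 h arrays in each genotype. At 24 h its log2 change was 0.67 ± 0.13 (1.59-fold, adjusted p 0.00146) in TAK1-deleted cells and 1.43 ± 0.13 (2.69-fold, adjusted p 4.51e-07) in wild type cells.

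Psmc5, an ATPase of the ring, followed. Psmc5 had log2 values of 8.95 and 8.64 at 0 h, 8.95 and 8.75 at 1 h, 9.56 and 9.55 at 3 h, 9.66 and 9.71 at 6 h, then 9.64 and 9.62 at 24 h in TAK1-deleted cells. Psmc5 in wild type cells had 8.81 and 8.72 at 0 h, 8.75 and 8.75 at 1 h, 9.60 and 9.73 at 3 h, 9.96 and 9.99 at 6 h, then 10.10 and 9.98 at 24 h. No array from 3 h on overlapped the 0 h arrays. The log2 change at 24 h was 0.83 ± 0.12 (adjusted p 0.0001) in TAK1-deleted cells and 1.27 ± 0.12 (adjusted p 6.51e-07) in wild type cells. Psmc3, another ATPase, changed least of the ATPases in wild type cells at 6 h, by 0.50 (adjusted p 0.0016), and by 0.51 (adjusted p 0.00187) in TAK1-deleted cells.

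Psmd8 was the one gene called up at 1 h. It encodes a subunit of the 19S lid. Psmd8 had log2 values of 10.87 and 10.87 at 0 h, 11.16 and 11.21 at 1 h, 11.17 and 11.00 at 3 h, 11.13 and 11.13 at 6 h, then 11.46 and 11.32 at 24 h in TAK1-deleted cells. Psmd8 in wild type cells had 10.82 and 10.93 at 0 h, 11.38 and 11.27 at 1 h, 11.22 and 11.30 at 3 h, 11.20 and 11.29 at 6 h, then 11.42 and 11.42 at 24 h. At 1 h both stimulated arrays lay above both 0 h arrays in each genotype, and its log2 change was 0.32 ± 0.10 (adjusted p 0.037) in TAK1-deleted cells and 0.45 ± 0.10 (adjusted p 0.00418) in wild type cells. The 1 h call of Psmd8 in TAK1-deleted cells was lost without any 1 of its 4 arrays and without the filter on dim probe sets (highest adjusted p 0.178), and that in wild type cells without the first 0 h array (adjusted p 0.0508). Of the 11 subunits outside the ATPases it had at 6 h the smallest change in wild type cells, 0.37 (adjusted p 0.00778, or at most 0.0704 without 1 array, the call being lost without the first 0 h or the second 6 h array), and a change of 0.27 (adjusted p 0.0537) in TAK1-deleted cells. Psmd12, a lid subunit picked out after its values were seen, was called up at 3, 6 and 24 h in wild type cells with changes of 0.87, 0.88 and 0.93. Its changes in TAK1-deleted cells were 0.47, 0.36 and 0.32, none called (adjusted p 0.0552, 0.153 and 0.235), and all called with the replicate block (adjusted p 0.000891, 0.00818 and 0.0196).

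Against this rise, the 3 catalytic genes of the immunoproteasome fell. All 3 were called down at 3 h in both genotypes, and these calls held under every alternative run. At 1 h 2 of 3 fell in TAK1-deleted cells and 3 of 3 in wild type cells, at 6 h 3 fell in TAK1-deleted cells and 2 in wild type cells, and at 24 h 1 in TAK1-deleted cells and 1 in wild type cells. Of all genes tested, 10.2%, 22.1%, 17.3% and 12.7% fell at 1, 3, 6 and 24 h in TAK1-deleted cells. In wild type cells 13.9%, 23.2%, 19.1% and 20.2% of all genes did. In bulk RNA fewer cells of a type and less RNA per cell cannot be told apart. Psmb8 had log2 values of 10.83 and 10.65 at 0 h, 10.26 and 10.23 at 1 h, 9.66 and 9.54 at 3 h, 10.45 and 10.26 at 6 h, then 11.00 and 10.94 at 24 h in TAK1-deleted cells. Psmb8 in wild type cells had 10.95 and 10.80 at 0 h, 10.28 and 10.19 at 1 h, 9.65 and 9.88 at 3 h, 10.44 and 10.46 at 6 h, then 11.08 and 10.94 at 24 h. In both genotypes the 1, 3 and 6 h arrays were below both 0 h arrays, while at 24 h the TAK1-deleted arrays lay above both and the wild type arrays overlapped them. Psmb8, whose product replaces the chymotrypsin-like subunit, changed by -1.14 ± 0.12 at 3 h (0.453-fold, adjusted p 1.99e-06) in TAK1-deleted cells and by -1.11 ± 0.12 (0.465-fold, adjusted p 2.36e-06) in wild type cells. At 24 h its changes were 0.23 (adjusted p 0.186) in TAK1-deleted cells and 0.13 (adjusted p 0.418) in wild type cells, neither called. The call of Psmb8 at 1 h in TAK1-deleted cells was lost without the first 0 h or the second 1 h array (highest adjusted p 0.106), and that at 6 h without the first 0 h or the second 6 h array (highest adjusted p 0.184). In wild type cells the 6 h call was lost without the first 0 h or the first 6 h array (highest adjusted p 0.084).

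Psmb9 replaces the caspase-like subunit. Psmb9 had log2 values of 10.53 and 10.31 at 0 h, 10.15 and 9.97 at 1 h, 9.25 and 9.30 at 3 h, 9.98 and 10.08 at 6 h, then 10.43 and 10.48 at 24 h in TAK1-deleted cells. Psmb9 in wild type cells had 10.50 and 10.65 at 0 h, 9.96 and 10.21 at 1 h, 9.75 and 9.92 at 3 h, 10.34 and 10.46 at 6 h, then 10.51 and 10.46 at 24 h. The 3 h arrays of TAK1-deleted cells were lower than any other array of either genotype. Its log2 change at 3 h was -1.14 ± 0.13 (adjusted p 3.21e-06) in TAK1-deleted cells and -0.74 ± 0.13 (adjusted p 0.000195) in wild type cells. At 6 h it was -0.39 (adjusted p 0.0271) and called in TAK1-deleted cells, and -0.18 (adjusted p 0.305) in wild type cells. At 1 h it was -0.36 in TAK1-deleted cells (adjusted p 0.067, or 0.0131 with the replicate block) and -0.49 (adjusted p 0.00999) in wild type cells. The 6 h call in TAK1-deleted cells was lost without the first 0 h array or either 6 h array (highest adjusted p 0.211). The 1 h call in wild type cells was lost without the second 0 h or the first 1 h array (highest adjusted p 0.0958) and with arrays centred (adjusted p 0.0516).

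Psmb10 replaces the trypsin-like subunit and was the one of the 3 still called down at 24 h. Psmb10 had log2 values of 10.94 and 10.94 at 0 h, 10.35 and 10.40 at 1 h, 9.94 and 9.87 at 3 h, 10.55 and 10.45 at 6 h, then 10.63 and 10.37 at 24 h in TAK1-deleted cells. Psmb10 in wild type cells had 11.02 and 10.88 at 0 h, 10.33 and 10.36 at 1 h, 9.57 and 9.98 at 3 h, 10.33 and 10.31 at 6 h, then 10.37 and 10.15 at 24 h. All 8 stimulated arrays of each genotype were below both of its 0 h arrays. The log2 change at 3 h was -1.04 ± 0.14 (adjusted p 1.87e-05) in TAK1-deleted cells and -1.18 ± 0.14 (adjusted p 4.66e-06) in wild type cells. At 24 h it was -0.44 ± 0.14 (adjusted p 0.0265) in TAK1-deleted cells and -0.69 ± 0.14 (adjusted p 0.000708) in wild type cells. In TAK1-deleted cells the calls at 6 and 24 h were lost without either 0 h array of that genotype and without its second array at 6 or 24 h (highest adjusted p 0.12 at 6 h and 0.232 at 24 h), and the call at 1 h without its first 1 h array (adjusted p 0.0535).

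At 3 and 6 h the standard counterparts went the other way. Psmb5 had log2 values of 12.47 and 12.38 at 0 h, 12.29 and 12.19 at 1 h, 12.82 and 12.76 at 3 h, 12.96 and 12.90 at 6 h, then 12.95 and 12.82 at 24 h in TAK1-deleted cells. Psmb5 in wild type cells had 12.12 and 12.23 at 0 h, 11.98 and 12.05 at 1 h, 12.69 and 12.80 at 3 h, 13.01 and 12.93 at 6 h, then 13.08 and 12.94 at 24 h. From 3 h on every stimulated array lay above both 0 h arrays. Psmb5, the chymotrypsin-like subunit, changed at 6 h by 0.50 ± 0.09 (adjusted p 0.00023) in TAK1-deleted cells and by 0.80 ± 0.09 (adjusted p 1.77e-06) in wild type cells.

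Psmb6 had log2 values of 10.37 and 10.36 at 0 h, 10.73 and 10.55 at 1 h, 10.84 and 10.85 at 3 h, 11.13 and 11.08 at 6 h, then 11.18 and 10.98 at 24 h in TAK1-deleted cells. Psmb6 in wild type cells had 10.39 and 10.12 at 0 h, 10.52 and 10.36 at 1 h, 10.79 and 11.01 at 3 h, 11.03 and 11.23 at 6 h, then 11.21 and 11.10 at 24 h. Psmb6, the caspase-like subunit, changed at 6 h by 0.74 ± 0.13 (adjusted p 0.000294) in TAK1-deleted cells and by 0.88 ± 0.13 (adjusted p 4.49e-05) in wild type cells. Psmb7 had log2 values of 10.44 and 10.69 at 0 h, 10.64 and 10.65 at 1 h, 10.80 and 10.99 at 3 h, 10.85 and 11.12 at 6 h, then 11.08 and 10.97 at 24 h in TAK1-deleted cells. Psmb7 in wild type cells had 10.34 and 10.39 at 0 h, 10.40 and 10.38 at 1 h, 10.89 and 11.17 at 3 h, 11.21 and 11.14 at 6 h, then 11.34 and 11.21 at 24 h. Psmb7, the trypsin-like subunit, changed at 6 h by 0.42 ± 0.13 (adjusted p 0.0208) in TAK1-deleted cells and by 0.81 ± 0.13 (adjusted p 0.000109) in wild type cells. The 6 h call of Psmb7 in TAK1-deleted cells was lost without the first 0 h or the second 6 h array (highest adjusted p 0.214) and with arrays centred (adjusted p 0.0796). At 3 h Psmb7 missed the threshold in TAK1-deleted cells, with 0.33 (adjusted p 0.0585, or 0.0136 with the replicate block), against 0.66 (adjusted p 0.000641) in wild type cells.

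**Figure D2:**
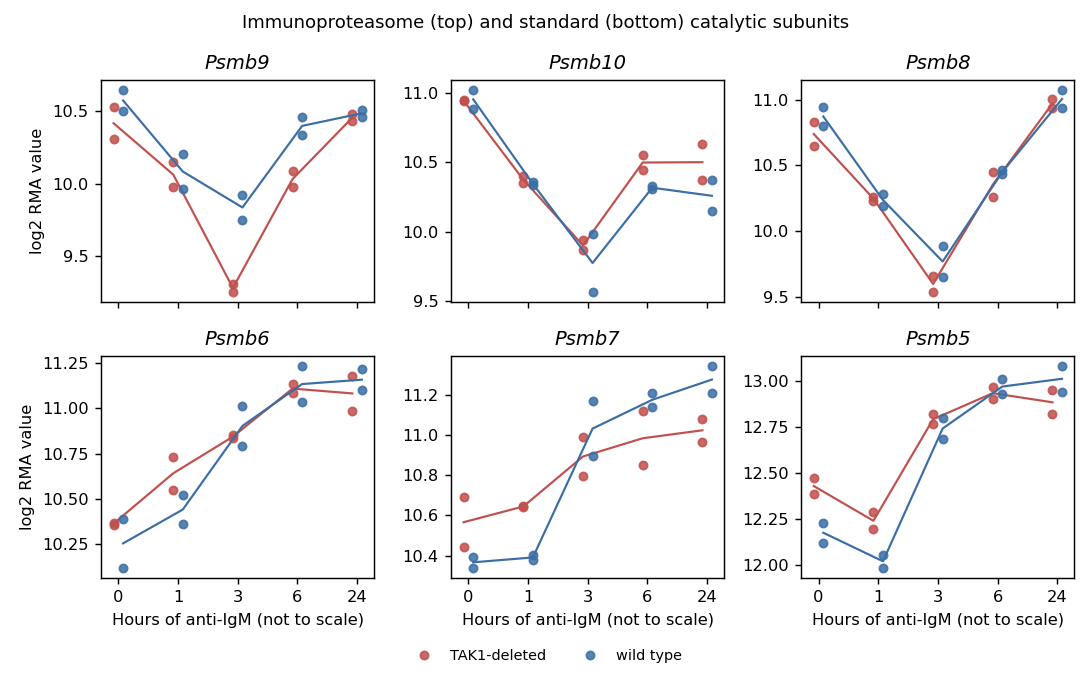
Log2 RMA value of each array (points) and group mean (lines) against hours of anti-IgM for the 3 immunoproteasome genes (top) and their standard counterparts (bottom, in the same column), in TAK1-deleted (red) and wild type (blue) cells. The top row dips at 3 h, to 9.25 in the lowest Psmb9 array, while the bottom row is higher at 3, 6 and 24 h than at 0 h.

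Each immunoproteasome gene was set against the subunit it replaces. A difference below 0 does not need opposite directions. At 1 h both Psmb5 arrays, like those of Psmb8, were below both 0 h arrays in each genotype. At 24 h in TAK1-deleted cells both Psmb8 arrays, like those of Psmb5, were above both 0 h arrays. The change of Psmb9 minus that of Psmb6, each from the 0 h mean of its own genotype, was below 0 in all 16 stimulated arrays, between -1.64 and -0.47. For Psmb10 minus Psmb7 it was below 0 in all 16, between -1.91 and -0.61. For Psmb8 minus Psmb5 it was also below 0 in all 16, between -1.73 and -0.19, and nearest to 0 in TAK1-deleted cells at 24 h. Differences between changes, not between levels, are compared here, since levels of different probe sets on these arrays are not comparable.

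The mean change of Psmb8, Psmb9 and Psmb10 minus that of Psmb5, Psmb6 and Psmb7 was -0.53, -1.50, -0.96 and -0.60 at 1, 3, 6 and 24 h in TAK1-deleted cells. In wild type cells it was -0.60, -1.63, -1.24 and -1.10. At 24 h the values were -0.63 and -0.57 in the TAK1-deleted arrays, against -1.10 and -1.10 in the wild type arrays, so that the genotypes did not overlap. This score over chosen genes is a description and was not tested. The gap of 0.50 between the genotypes' scores at 24 h was made up of 0.16 from the immunoproteasome genes and -0.34 from the standard genes (TAK1-deleted minus wild type change). The 0 h arrays enter this gap. The mean of the standard genes differed between the genotypes by 0.19 at 0 h and by -0.15 at 24 h, and that of the immunoproteasome genes by -0.10 at 0 h and 0.06 at 24 h (TAK1-deleted minus wild type).

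Markers of other cells also changed over the times, along courses that differed between cell types. In both genotypes the summed macrophage and monocyte markers were lowest at 6 h and the summed red-cell markers at 24 h. The 8 macrophage and monocyte markers (C1qa, C1qb, C1qc, Csf1r, Adgre1, Vcam1, Cd68 and Lyz2) were all called down at 3 and 6 h in both genotypes. At these times 22.1% and 17.3% of all genes fell in TAK1-deleted cells, and 23.2% and 19.1% in wild type cells. The summed level of these 8 markers in TAK1-deleted cells was 14.70 to 14.79 at 0 h, 11.84 to 12.16 at 3 h, 11.39 to 11.61 at 6 h and 13.82 to 14.00 at 24 h. In wild type cells it was 14.76 to 14.88, 11.85 to 11.95, 11.42 to 11.65 and 12.34 to 12.46. The summed B-cell markers were also lower at 3, 6 and 24 h than at 0 h. In TAK1-deleted cells they were at 15.84 to 15.89 at 0 h and 14.78 to 15.00 at 3 h. At 6 h they were at 14.61 to 14.81 and at 24 h at 14.99 to 15.04. In wild type cells they were at 15.88 to 15.97, 14.85 to 15.06, 14.84 to 14.87 and 14.92 to 14.96 at these times. The summed level of the red-cell markers (7 of 10 listed with a probe set) was 13.97 to 14.24 at 0 h, 12.60 to 13.01 at 3 h, 11.68 to 11.91 at 6 h and 10.00 to 10.05 at 24 h in TAK1-deleted cells, and at the same times 12.47 to 12.51, 11.00 to 11.16, 10.29 to 10.33 and 9.71 to 9.82 in wild type cells. The summed level of the natural killer cell markers (5 of 5) was 11.12 to 11.35 at 0 h, 9.73 to 10.16 at 3 h, 9.33 to 9.42 at 6 h and 9.52 to 9.53 at 24 h in TAK1-deleted cells, and at the same times 12.13 to 12.37, 10.98 to 11.04, 10.43 to 10.55 and 9.46 to 9.51 in wild type cells. The summed level of the T-cell markers (6 of 6) was 11.94 to 12.32 at 0 h, 11.29 to 11.92 at 3 h, 11.12 to 11.44 at 6 h and 11.26 to 11.33 at 24 h in TAK1-deleted cells, and at the same times 12.72 to 13.06, 12.36 to 12.51, 11.76 to 11.99 and 10.68 to 10.74 in wild type cells. At 24 h 7 of 7 red-cell, 5 of 5 natural killer cell and 4 of 6 T-cell markers were called down in TAK1-deleted cells, where 12.7% of all genes were, and 4, 5 and 6 of them in wild type cells, where 20.2% were. Of 5 neutrophil and 5 plasma cell markers, 0 and 1 were called down at 24 h in TAK1-deleted cells, and 4 and 3 in wild type cells. The log2 scale of these arrays has no 0, so no marker can be called absent. The part of these cells in the fall of Psmb8, Psmb9 and Psmb10 and in the rise of the other genes was not tested.

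PA28α and PA28β, encoded by Psme1 and Psme2, form a ring that opens the core and are known to be induced by interferon together with the immunoproteasome genes. Here Psme2 fell at 1 h in wild type cells, and both genes were called up at 6 h in both genotypes. Psme2 had log2 values of 11.84 and 11.91 at 0 h, 11.48 and 11.62 at 1 h, 11.69 and 12.07 at 3 h, 12.51 and 12.70 at 6 h, then 12.76 and 12.81 at 24 h in TAK1-deleted cells. Psme2 in wild type cells had 12.08 and 12.02 at 0 h, 11.51 and 11.60 at 1 h, 11.79 and 12.29 at 3 h, 12.75 and 12.72 at 6 h, then 12.96 and 12.86 at 24 h. The 6 and 24 h arrays were the highest in both genotypes and did not overlap those at 0 h. The log2 change of Psme2 at 1 h was -0.32 (adjusted p 0.14, or 0.0256 with the replicate block) in TAK1-deleted cells and -0.50 ± 0.14 (adjusted p 0.0178) in wild type cells. The wild type call was lost without either 0 h array, without the first 1 h array (highest adjusted p 0.101) and with arrays centred (adjusted p 0.141). At 24 h it was 0.91 ± 0.14 (1.88-fold, adjusted p 0.000166) in TAK1-deleted cells and 0.86 ± 0.14 (1.81-fold, adjusted p 0.000134) in wild type cells. At 3 h, where the immunoproteasome genes were lowest, Psme2 had changed by 0.01 in TAK1-deleted cells and -0.01 in wild type cells.

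Psme1 had log2 values of 11.16 and 11.08 at 0 h, 10.99 and 10.98 at 1 h, 11.28 and 10.71 at 3 h, 11.56 and 11.44 at 6 h, then 11.55 and 11.59 at 24 h in TAK1-deleted cells. Psme1 in wild type cells had 11.17 and 11.25 at 0 h, 10.99 and 10.88 at 1 h, 11.25 and 11.14 at 3 h, 11.54 and 11.62 at 6 h, then 11.52 and 11.60 at 24 h. The 2 TAK1-deleted arrays at 3 h lay on either side of the 0 h arrays. Psme1 changed by 0.38 ± 0.14 at 6 h (adjusted p 0.0474) in TAK1-deleted cells and by 0.37 ± 0.14 (adjusted p 0.0431) in wild type cells, and both calls were lost without any 1 of their 4 arrays (highest adjusted p 0.216 and 0.181). At 24 h it changed by 0.45 (adjusted p 0.0255) in TAK1-deleted cells and by 0.35 (adjusted p 0.0548, or 0.0141 with the replicate block) in wild type cells. The TAK1-deleted call at 24 h was also lost without any 1 of its 4 arrays (highest adjusted p 0.122). One further probe set carries the symbols of both Psme2 and its retrogene and was left out.

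Psme3 encodes PA28γ, a nuclear activator. Psme3 had log2 values of 12.21 and 12.19 at 0 h, 12.40 and 12.20 at 1 h, 12.90 and 12.73 at 3 h, 12.75 and 12.66 at 6 h, then 12.39 and 12.37 at 24 h in TAK1-deleted cells. Psme3 in wild type cells had 12.17 and 12.06 at 0 h, 12.19 and 12.10 at 1 h, 13.07 and 12.90 at 3 h, 13.02 and 12.99 at 6 h, then 12.85 and 12.69 at 24 h. At 3 and 6 h every stimulated array was above both 0 h arrays, and at 24 h the TAK1-deleted arrays had come closer to 0 h than the wild type arrays. Its change was 0.61 and 0.51 at 3 and 6 h in TAK1-deleted cells, against 0.87 and 0.89 in wild type cells, all called. At 24 h it was 0.18 (adjusted p 0.193, or 0.0297 with the replicate block) in TAK1-deleted cells and 0.66 (adjusted p 3.96e-05) in wild type cells. Psme4, the activator PA200, was called at no time in either genotype without the replicate block, and its changes lay between -0.19 and 0.32.

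The chaperones of core assembly held the largest change of all in wild type cells at 6 h. Psmg1 and Psmg2 form a pair that helps to build the α ring. Psmg1 had log2 values of 9.33 and 8.80 at 0 h, 9.35 and 8.57 at 1 h, 10.00 and 9.61 at 3 h, 10.03 and 10.00 at 6 h, then 9.64 and 9.60 at 24 h in TAK1-deleted cells. Psmg1 in wild type cells had 9.15 and 8.64 at 0 h, 8.90 and 8.48 at 1 h, 10.23 and 9.92 at 3 h, 10.44 and 10.23 at 6 h, then 10.36 and 10.09 at 24 h. The 3, 6 and 24 h arrays were above both 0 h arrays in each genotype. Psmg1 changed at 6 h by 0.95 ± 0.25 (1.93-fold, adjusted p 0.00767, or 0.102 without the second 0 h array) in TAK1-deleted cells and by 1.44 ± 0.25 (2.71-fold, adjusted p 0.000225) in wild type cells. At 24 h it changed by 0.55 (adjusted p 0.124, or 0.00274 with the replicate block) in TAK1-deleted cells and by 1.33 (adjusted p 0.000458) in wild type cells.

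Psmg2 had log2 values of 9.99 and 9.78 at 0 h, 9.86 and 9.23 at 1 h, 10.79 and 10.44 at 3 h, 10.63 and 10.27 at 6 h, then 10.25 and 9.95 at 24 h in TAK1-deleted cells. Psmg2 in wild type cells had 9.76 and 9.48 at 0 h, 9.53 and 9.08 at 1 h, 10.86 and 10.31 at 3 h, 11.09 and 10.79 at 6 h, then 10.67 and 10.38 at 24 h. The 24 h arrays of TAK1-deleted cells overlapped the 0 h arrays of that genotype, while those of wild type cells were above both of theirs. At 6 h Psmg2 changed by 0.56 (adjusted p 0.0836, or 8.87e-05 with the replicate block) in TAK1-deleted cells and by 1.32 ± 0.24 (adjusted p 0.00034) in wild type cells. Psmg4, of a second chaperone pair, changed at 6 h by 0.62 (adjusted p 0.000406) in TAK1-deleted cells and by 0.84 (adjusted p 1.78e-05) in wild type cells, whereas its partner Psmg3 was called at no time without the replicate block. Pomp, the maturation factor of the core, changed at 24 h by 0.38 in TAK1-deleted cells, which was not called, and rose by 0.73 in wild type cells.

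Of the chaperones of 19S assembly, Psmd5 was called down at 1 h in wild type cells. Psmd5 had log2 values of 10.30 and 10.02 at 0 h, 9.97 and 9.54 at 1 h, 10.09 and 9.85 at 3 h, 10.06 and 10.04 at 6 h, then 10.41 and 10.08 at 24 h in TAK1-deleted cells. Psmd5 in wild type cells had 10.23 and 10.00 at 0 h, 9.71 and 9.17 at 1 h, 9.94 and 9.75 at 3 h, 10.21 and 10.11 at 6 h, then 10.62 and 10.24 at 24 h. Both wild type arrays at 1 h were below those at 0 h, and the second was the lowest of all 20 arrays. Its change at 1 h was -0.41 (adjusted p 0.193, or 0.006 with the replicate block) in TAK1-deleted cells and -0.68 ± 0.20 (adjusted p 0.0213) in wild type cells. The wild type call was lost without the first 0 h or the second 1 h array (highest adjusted p 0.269). With the replicate block Psmd5 was called up at 24 h in wild type cells (0.32, adjusted p 0.0173). Psmd10, also known as gankyrin, changed at 24 h by 0.61 (adjusted p 0.00402) in TAK1-deleted cells and by 0.77 (adjusted p 0.000339) in wild type cells.

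**Figure D3:**
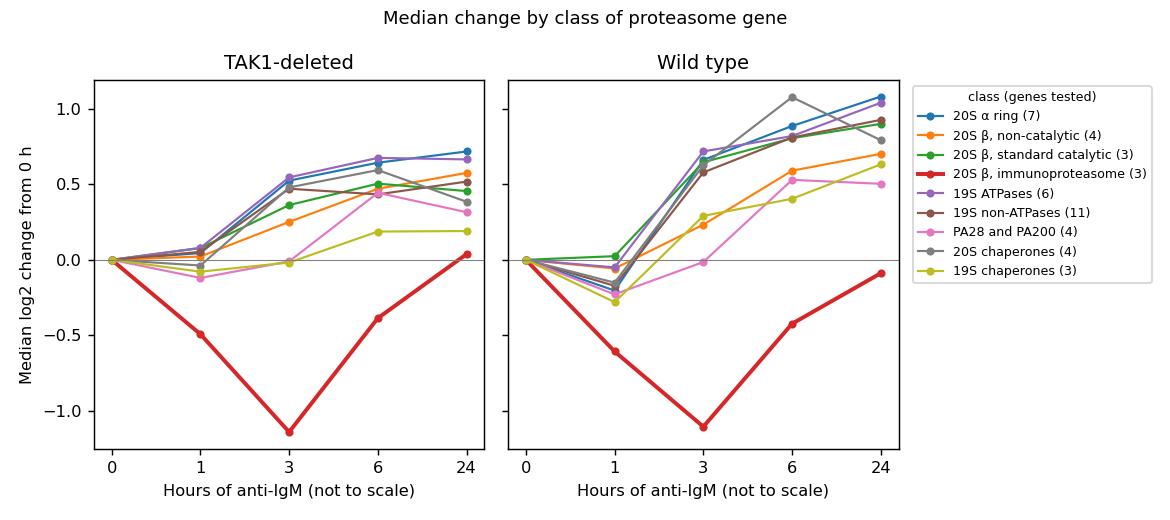
Median log2 change from 0 h of each class of proteasome gene against hours of anti-IgM, in TAK1-deleted cells (left) and wild type cells (right), with the number of genes tested in the key. The immunoproteasome line reaches -1.14 in TAK1-deleted cells and -1.11 in wild type cells at 3 h, and the other classes are above 0 at 6 and 24 h.

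Of the genes that share the name without being subunits, Psmc3ip was called up at 24 h, by 0.74 (adjusted p 0.00111) in TAK1-deleted cells and by 1.21 (adjusted p 4.7e-06) in wild type cells. Psme3ip1 was called at no time without the replicate block. Without them, 31 of 45 genes rose at 24 h in TAK1-deleted cells and 37 of 45 in wild type cells. Of all genes tested, 14.9% rose at 24 h in TAK1-deleted cells and 23.6% in wild type cells. The 5 genes with several probe sets (Psma3, Psma5, Psmb3, Psmc1 and Psmd2) had changes of one sign at 24 h in each of their probe sets, from 0.33 to 0.84 in TAK1-deleted cells and from 0.56 to 1.39 in wild type cells.

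The genotypes were compared at each time. At 0, 1 and 6 h limma called 0 of the 47 genes, where 2.32%, 4.28% and 2.53% of all genes tested were called (1.5%, 2.07% and 0.927% higher in TAK1-deleted cells, 0.819%, 2.21% and 1.6% lower). At an unadjusted p under 0.05 in limma there were 3, 10 and 7 genes at these times, 1 at 3 h and 15 at 24 h. The share of all genes at this cut-off was not counted, so these numbers cannot be set against a background. At 3 h 1 gene was called (2.71% of all genes) and at 24 h 3 genes (12.2% of all genes), all lower in TAK1-deleted cells, where 1.7% and 5.18% of all genes were lower and 1% and 7.04% higher. Of the 47 genes, 3 were higher in TAK1-deleted cells at 24 h by the sign of the difference, against 50% of all genes tested, and the median difference was -0.27, against 0.00 for all genes. At 6 h the median difference was -0.13, at 3 h -0.08, at 1 h 0.20 and at 0 h 0.05.

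With the replicate number as a block, more genes were called: 1 at 0 h (6.99% of all genes), 5 at 1 h (12.9%), 1 at 3 h (8.31%), 6 at 6 h (12.2%) and 19 at 24 h (28.8%). The 1 at 0 h was Psmb5, higher by 0.25 in TAK1-deleted cells (adjusted p 0.0378). The 5 at 1 h were higher in TAK1-deleted cells (Psmd1, Psmd6, Psmd9, Psmd10 and Psmd13), where 7.19% of all genes were. The 6 at 6 h and the 19 at 24 h were lower in TAK1-deleted cells, where 7.85% and 14.1% of all genes were.

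The gene lower at 3 h was Psmb9, at 9.25 and 9.30 in TAK1-deleted cells, against 9.75 and 9.92 in wild type cells. The groups did not overlap, and the difference was -0.56 ± 0.13 (adjusted p 0.0267 in limma). The call was lost when any 1 of the 4 arrays was left out (adjusted p 0.0738 to 0.27). Psmb8 and Psmb10 differed by -0.17 and 0.13 at 3 h, and neither was called. The difference between the genotypes' changes from 0 h was -0.40 for Psmb9 at 3 h and was not called. Irf1, an interferon-induced factor known to drive Psmb9, was lower in TAK1-deleted cells at 3 h, with a difference of -0.77 (called). It had changed by 0.17 from 0 h in TAK1-deleted cells and by 0.74 in wild type cells. The part of Irf1 in the difference of Psmb9 was not tested.

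The 3 genes lower at 24 h were Psmd1, Psmc5 and Psme3. Psmd1 was at 11.72 and 11.58 in TAK1-deleted cells, against 12.28 and 12.01 in wild type cells, a difference of -0.49 ± 0.13 (adjusted p 0.0246). Psmc5 was at 9.64 and 9.62 in TAK1-deleted cells, against 10.10 and 9.98 in wild type cells, a difference of -0.41 ± 0.12 (adjusted p 0.0411). Psme3 was at 12.39 and 12.37 in TAK1-deleted cells, against 12.85 and 12.69 in wild type cells, a difference of -0.39 ± 0.10 (adjusted p 0.0137). In each gene the genotypes did not overlap. All 3 calls were lost without the first wild type array at 24 h (adjusted p 0.256 for Psmd1, 0.245 for Psmc5 and 0.153 for Psme3), and without either TAK1-deleted array at 24 h. That of Psmc5 was also lost without the second wild type array and without the filter on dim probe sets.

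The change from 0 h was set between genotypes in the same model. At 1, 3 and 6 h limma called 0 of the 47 genes, where 0.109%, 0.0585% and 0.284% of all genes were called (0%, 0% and 0.0919% upward, 0.109%, 0.0585% and 0.192% downward). At an unadjusted p under 0.05 there were 0, 1 and 5 genes, and 15 at 24 h, again without a share of all genes to set beside them. At 24 h 2 genes were called (8.66% of all genes), Psmd1 with -0.76 ± 0.19 (adjusted p 0.0186) and Psme3 with -0.48 ± 0.14 (adjusted p 0.0388), and both rose less in TAK1-deleted cells, as 4.04% of all genes did, against 4.62% in the other direction. With the replicate block 3 genes differed at 6 h (6.45% of all genes) and 13 at 24 h (22%), all lower in TAK1-deleted cells. Of all genes 4.64% at 6 h and 10.9% at 24 h were lower in this way. The 13 included Psmb5 (-0.38, adjusted p 0.0104) and Psmb7 (-0.45, adjusted p 0.038) and none of Psmb8, Psmb9 and Psmb10, whose differences in change at 24 h were 0.10, 0.13 and 0.25. Psmg1 had the largest difference, -0.77 (adjusted p 0.00668 with the block).

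**Figure D4:**
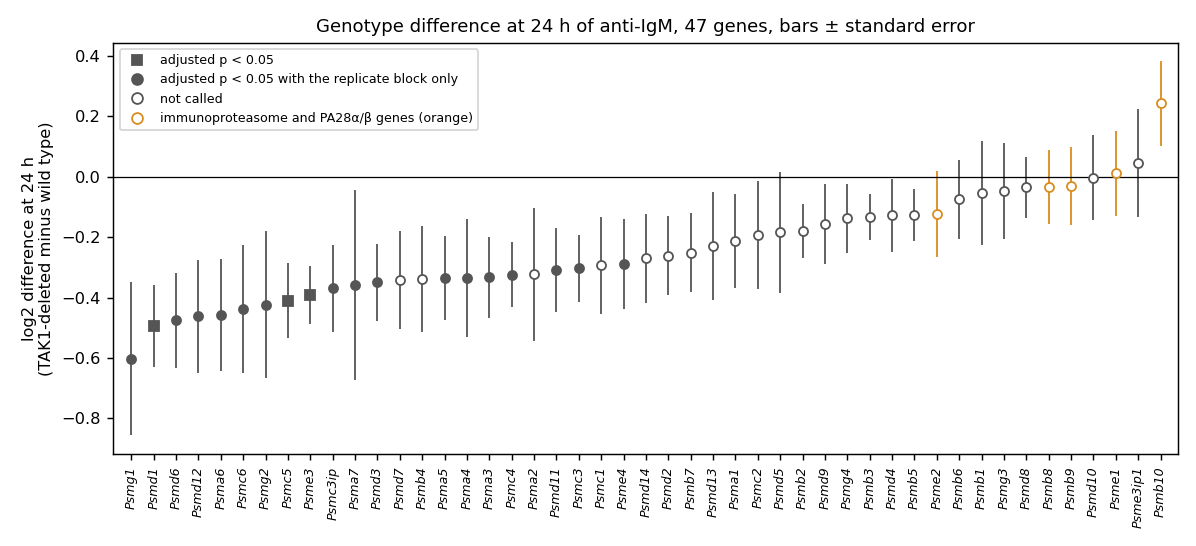
Log2 difference between TAK1-deleted and wild type cells at 24 h of anti-IgM for the 47 genes, in order of size, with bars of ± 1 standard error. Most genes lie below 0, with squares for Psmd1, Psmc5 and Psme3 (adjusted p under 0.05), while Psmb8 and Psmb9 lie near 0 and Psmb10 is highest.

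Other cells also differed between the genotypes. At 24 h 7 of 8 macrophage and monocyte markers and 5 of 5 neutrophil markers were higher in TAK1-deleted cells, with summed levels of 13.82 to 14.00 against 12.34 to 12.46 in wild type cells for macrophages (7.04% of all genes were called higher), and 12.68 to 12.74 against 10.24 to 10.36 for neutrophils. At 0 h all 7 red-cell markers were higher in TAK1-deleted cells, at 13.97 to 14.24 against 12.47 to 12.51 in wild type cells (1.5% of all genes were called higher). Of the T-cell, natural killer cell and plasma cell markers, 3 of 6, 2 of 5 and 3 of 5 were called lower in TAK1-deleted cells at 0 h, where 0.819% of all genes were. Their summed levels at 0 h were 11.94 to 12.32 in TAK1-deleted cells against 12.72 to 13.06 in wild type cells for T cells, 11.12 to 11.35 in TAK1-deleted cells against 12.13 to 12.37 in wild type cells for natural killer cells, and 11.82 in TAK1-deleted cells against 13.07 to 13.19 in wild type cells for plasma cells. The part of these cells in the differences between genotypes was not tested.

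Genes that work beside the proteasome were given from lists chosen with earlier results of these data known. Of 10 other components and assembly factors, 7 rose at 3 h and 3 at 24 h in TAK1-deleted cells, and 5 and 6 in wild type cells, with no falls. Of all genes tested, 19.6% rose at 3 h and 14.9% at 24 h in TAK1-deleted cells, and 20.9% and 23.6% in wild type cells. The deubiquitinases of the 19S cap rose with the subunits: at 3 h Uchl5 by 0.74 in TAK1-deleted cells and by 1.06 in wild type cells, and Usp14 by 0.65 in TAK1-deleted cells and by 1.11 in wild type cells. Txnl1, a thioredoxin-like protein bound to the 19S cap, rose at 6 h by 0.67 in TAK1-deleted cells and by 1.14 in wild type cells. Zfand5, a ubiquitin-binding activator of the proteasome, rose at 1 h, by 1.45 in TAK1-deleted cells and 1.24 in wild type cells. Uchl5 was lower in TAK1-deleted cells at 24 h, with a difference of -0.60 (called).

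Among 10 genes that control proteasome transcription, 5 rose and 1 fell at 3 h in TAK1-deleted cells (19.6% of all genes rose and 22.1% fell), and 4 rose and 1 fell in wild type cells (20.9% rose and 23.2% fell). Nfe2l1 had changed by 0.65 at 3 h in TAK1-deleted cells and 0.68 in wild type cells, and at 24 h by 0.26 (not called) in TAK1-deleted cells and 0.35 (called) in wild type cells. Its small Maf partners moved earlier. At 1 h Maff rose by 3.45 in TAK1-deleted cells and 4.36 in wild type cells, Mafk by 2.02 in TAK1-deleted cells and 1.93 in wild type cells, and Mafg by 0.91 in TAK1-deleted cells and 1.04 in wild type cells. Maff was lower in TAK1-deleted cells at 1 h, with a difference of -0.95 (called). Nfe2l2, a related factor, rose at 1 h by 0.76 in TAK1-deleted cells and 0.78 in wild type cells, and its inhibitor Keap1 fell by 0.56 in TAK1-deleted cells and by 0.75 in wild type cells.

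Of 15 genes of ubiquitin supply and delivery, 5 rose and 1 fell at 3 h in TAK1-deleted cells (19.6% of all genes rose and 22.1% fell), and 6 rose and 1 fell in wild type cells (20.9% rose and 23.2% fell). Ubqln4, a shuttle factor, rose at 3 h by 0.98 in TAK1-deleted cells and by 1.31 in wild type cells, and Vcp, the segregase that extracts ubiquitinated proteins, rose at 24 h by 0.71 in TAK1-deleted cells and by 1.04 in wild type cells. Ube2d1, a ubiquitin-conjugating enzyme, was the one that fell at 3 h, by 0.59 in TAK1-deleted cells and by 0.79 in wild type cells.

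Of 11 genes of MHC class I presentation, the route that the immunoproteasome feeds, 5 fell and 1 rose at 3 h in TAK1-deleted cells (22.1% of all genes fell and 19.6% rose), and 4 fell and 1 rose in wild type cells (23.2% fell and 20.9% rose). The peptide transporter gene Tap2 fell at 3 h by 0.60 in TAK1-deleted cells and by 0.42 in wild type cells, and Tap1, the other transporter gene, changed by -0.59 (called) in TAK1-deleted cells and by -0.23 (not called) in wild type cells. The peptide-trimming enzyme Erap1 was the one that rose, by 0.87 in TAK1-deleted cells and 0.86 in wild type cells. Of 7 interferon-responsive transcription factors, 2 rose and 3 fell at 3 h in TAK1-deleted cells (19.6% of all genes rose and 22.1% fell), and 3 rose and 3 fell in wild type cells (20.9% rose and 23.2% fell). Irf2 fell at 3 h by 1.30 in TAK1-deleted cells and by 1.41 in wild type cells, and Stat2 fell by 1.15 in TAK1-deleted cells and by 0.88 in wild type cells. Stat3 rose by 1.10 in TAK1-deleted cells and by 1.41 in wild type cells, and was lower in TAK1-deleted cells at 3 h (-0.46, called).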

How the data were processed

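Log2 expression values of 20 Affymetrix Mouse Gene 1.0 ST arrays were used as the authors deposited them. Per the submitters' processing notes they were made with RMA, a background correction, quantile normalization and summary of probes, in Affymetrix Expression Console 1.0. The genome build behind the probe sets is not given in the sources used here. The number of arrays, 2 in each of 10 groups, limits the precision.

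Of 35556 probe sets, 23410 were in the platform annotation, 21789 of them with 1 gene symbol and 1621 with several, which were left out. Probe sets that reached 7.449, the overall median of the table, on 2 or more arrays were kept, and for each gene the one with the highest mean, giving 11968 genes. limma 3.58.1 in R 4.3.3 was fitted to all 20 arrays with 1 mean per group and an intensity trend in the prior variance (residual df 10, prior df 5.466), and 17 contrasts were adjusted by Benjamini-Hochberg within each. Errors are standard errors of this fit (median 0.141 for the proteasome genes). The fit was tested on simulated data. Tables and figures were made in Python 3.11.15 with pandas 2.3.3. Promoters are RefSeq's.

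The labels' descriptions number the arrays 1 and 2 within each group. Deviations of same-numbered arrays from their group means correlated in all 45 pairs of groups (r 0.191 to 0.769, median 0.535), so the numbers were taken to pair arrays, and the fit with the number as a block was run beside the one without it.

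The proteasome genes, role classes and gene lists were chosen with earlier results of these data known. Values are given in full for Psmb5 to Psmb10 of the catalytic kind, Psme1 and Psme2. Values or changes are given for some of the genes with the 4 largest called rises or falls in a contrast. The same holds for the largest and smallest change in each class at the time with the most calls. Up to 4 called genes of each list are named per contrast. Alternatives were other filters, the mean of a gene's probe sets, arrays centred on their medians, the replicate block, no intensity trend and leaving out each array.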

Additional observations from a re-analysis of the deposited data

Results flagged for a closer look

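Of the proteasome genes, 2 differed between the genotypes in their change from 0 h to 24 h by the interaction term in limma. Of all genes tested 8.66% did, and 4.04% had the lower change in TAK1-deleted cells. In this fit 2 of 47 is not set apart from the background. With the replicate block it was 13 of 47, all with the lower change in TAK1-deleted cells, as in 10.9% of all genes. Psmd1, the 19S scaffold subunit, changed by 0.67 in TAK1-deleted cells and by 1.43 in wild type cells, a difference of -0.76 (adjusted p 0.0186). It was no longer called without the first wild type array at 24 h, the second TAK1-deleted array at 24 h, the second wild type array at 0 h or the first TAK1-deleted array at 0 h (highest adjusted p 0.103). Psme3, the nuclear activator PA28γ, changed by 0.18 in TAK1-deleted cells and by 0.66 in wild type cells, a difference of -0.48 (adjusted p 0.0388). It was no longer called in 7 of the 8 fits that left out 1 array, nor without the filter on dim probe sets or the intensity trend (highest adjusted p 0.17).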

How the results depend on the processing

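Counts of called proteasome genes moved most with the replicate block, which added 84 calls over 799 pairs of gene and contrast and lost 0. With it the counts were 10 at 1 h in TAK1-deleted cells and 11 in wild type cells. Between genotypes it gave 1 at 0 h, 5 at 1 h, 6 at 6 h and 19 at 24 h, and for the difference in change 3 at 6 h and 13 at 24 h. With arrays centred on their median, 1 gene differed between genotypes at 1 h (7.47% of all genes) and 13 at 24 h (20.4%), and 5 in their change at 24 h (14.7%). Without the filter 1 gene differed in its change at 24 h (4.71% of all genes). Without the intensity trend 1 did (8.61%), and 1 gene differed between genotypes at 1 h (4.4%). The other counts stayed within 1.5 times the reported ones under these settings.

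Leaving out 1 array gave 1 to 2 calls at 1 h, 16 to 24 at 3 h, 20 to 26 at 6 h and 21 to 30 at 24 h in TAK1-deleted cells, and 4 to 7 at 1 h in wild type cells. Between genotypes it gave 0 to 1 at 1 h, 0 at 3 h and 0 to 3 at 24 h, and 0 to 3 for the difference in change at 24 h. The immunoproteasome minus standard change in TAK1-deleted cells was -0.62 to -0.43 at 1 h, -1.59 to -1.40 at 3 h, -1.05 to -0.87 at 6 h and -0.69 to -0.51 at 24 h. Its difference between genotypes at 0 h was -0.38 to -0.19. For the difference in change it was -0.023 to 0.16 at 1 h, 0.043 to 0.23 at 3 h, 0.18 to 0.37 at 6 h and 0.41 to 0.59 at 24 h. The sign turned in 3 cases, and the cause was not tested. The difference in change at 1 h was -0.023 without the second TAK1-deleted array at 0 h, against 0.07 as reported. The difference between genotypes at 6 h was 0.047 without the second TAK1-deleted array at 6 h and 0.00365 without the second wild type array at 6 h, against -0.011 as reported.

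Of 168 named values, 76 were called as reported. Of these 30 lost the call in a fit without 1 array and 10 under another setting, and 0 changed sign. Sign changes numbered 66 among values not called.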
